A study of Mus musculus with 25 samples.

Results

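The replication-dependent histone genes were examined in hematopoietic stem cells with and without ZNF143. The members were all genes of the deposited expression table whose symbol starts with Hist1h, Hist2h, Hist3h or Hist4h. There were 63 such genes among the 23116 in the table, with 54 in the Hist1 cluster, 5 in Hist2, 3 in Hist3 and 1 in Hist4. By histone class they were 6 H1, 17 H2A, 17 H2B, 10 H3 and 13 H4 genes. Of the 63, 60 are protein coding and 3 are pseudogenes in GENCODE release M21 (Hist1h2aj, Hist1h2al and Hist3h2bb-ps). A further 7 symbols of this kind in that annotation were not analysed here.

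RNA-seq was made from HSLAM cells (LSK+ CD150+ CD48-), a sorted bone marrow population enriched for hematopoietic stem cells, of adult male C57BL/6 mice. All animals were Znf143 f/f littermates. The 3 control libraries came from those without the Rosa26ERT2-Cre allele (Cre-), called Znf143 f/f here. The 3 deleted libraries came from those with it (Cre+), called Znf143 -/-. Both genotypes carried the floxed allele, with loxP sites around exon 1, and both received tamoxifen. The Rosa26 promoter drives the recombinase in most cells of the animal, so the deletion was not limited to blood cells. The sample labels name the deleted genotype a CTCF knockout. Zfp143, the mouse gene for ZNF143, had FPKM (fragments per kilobase of gene length, scaled by the library's depth) of 3.06, 4.03 and 3.63 in Znf143 f/f. Its FPKM in Znf143 -/- were 0.145, 0.303 and 0.326, which goes with the genotype given by the study and not with the label.

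Replication-dependent histone genes supply the core histones H2A, H2B, H3 and H4 and the linker histone H1 that package newly copied DNA. They lack introns in most cases, lie in clusters and are expressed mainly in S phase. Their mRNAs are the best known animal mRNAs that usually end without a poly(A) tail, at a conserved stem-loop that is bound by the stem-loop binding protein SLBP. Some members also make polyadenylated mRNAs that run past the stem-loop. The libraries here were primed with oligo-dT on RNA labelled as polyA RNA, so the values cover the histone mRNA that this priming captured and not all histone mRNA.

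The stem-loop is shown because it defines the family and separates its H4 genes from most others. The histone stem-loop was searched for by its pattern of paired stem bases around a short T-rich loop, on the sense strand within 200 bases after the stop codon in GRCm38. It was found in 58 of the 60 members with an annotated stop codon, 21 to 55 bases after the stop (median 30). The pattern was not found for Hist2h2be or Hist1h2an. The 3 forms held by the largest numbers of members follow, 5′ to 3′ and written as DNA, with the stem in capitals and the loop in lower case.
Form in 34 members, among them Hist1h2ac, Hist1h2ae and Hist1h3d: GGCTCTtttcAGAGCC
Form in 9 members, among them Hist1h1t, Hist1h3e and Hist1h3f: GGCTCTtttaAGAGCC
Form in 8 members, all of them H4 genes and among them Hist1h4d and Hist4h4: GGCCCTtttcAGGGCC
Hist1h4j, an H4 gene described below for its change, carries a form shared with Hist1h4b.
Form in 2 members, Hist1h4j and Hist1h4b: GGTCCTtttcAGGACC

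Fragments on genes ranged from 38643255 to 57895793 per library. The FPKM of the third Znf143 -/- library were scaled by the same number as those of the second, although 1.20 times that number of fragments lay on its genes. As deposited, the median log2 fold change over all 19296 genes tested was 0.11, and it was 0.01 after the libraries were rescaled by the median of ratios. Changes of histone genes below are read against this shift, and calls that did not hold after rescaling are named. At an adjusted p under 0.05, 2.74% of all genes tested rose and 1.58% fell as deposited, and the marker counts below are read beside these shares. All 10 stem cell markers passed the filter. Of these 1 rose (Ly6a, log2 fold change 1.24, limma adjusted p = 0.00379), 3 of 10 had a fold change above 0, and Mecom fell after rescaling alone (-0.55, limma adjusted p = 0.0208). Neutrophil markers differed between the genotypes, with 5 of 8 higher in Znf143 -/- (Elane, S100a8, S100a9, Camp and Ngp). S100a9 was not called after rescaling, with a limma adjusted p of 0.108. As deposited, their summed FPKM was 183 to 267 in Znf143 f/f and 271 to 400 in Znf143 -/-. Most of this sum was Prtn3, with FPKM of 225, 110 and 210 against 259, 142 and 191. Prtn3 did not pass the test (log2 fold change 0.14, limma adjusted p = 0.842), so the sums say little about the 5 genes that rose. Of the other marker lists, 1 of 5 macrophage genes rose (Csf1r), 1 of 8 erythroid genes fell (Hbb-bt), and 0 of 6 megakaryocyte, 0 of 3 endothelial and stromal and 0 of 2 lymphoid genes tested passed. Csf1r had a mean FPKM of 0.006 in Znf143 f/f and 0.225 in Znf143 -/-, and passed the filter of 0.1 through Znf143 -/- alone. The 6 lymphoid genes listed summed to 3.21 to 3.56 FPKM in Znf143 f/f and 2.25 to 3.44 in Znf143 -/-, with Il7r at 0 in the 3 Znf143 f/f libraries. In these bulk samples, more cells of a type and more RNA per cell cannot be told apart, and the part of neutrophil transcripts in the results below was not tested.

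Histone cluster genes differed widely in level. The 5 highest held 45.0% of the summed mean FPKM of the family. Hist1h2ae, a core histone H2A gene, held 21.4% of it, and Hist1h4d, an H4 gene, held 10.4%. Their mean FPKM over 6 libraries were 316 and 154, followed by 69.5 for Hist1h2bc (H2B), 64.6 for Hist1h1c and 60.3 for Hist1h1b (both H1). The members with a mean FPKM of at least 10 numbered 32, another 26 lay between 1 and 10, and 5 lay below 1. The lowest was Hist1h2bq, with 3 fragments summed over Znf143 f/f and 10 over Znf143 -/-. It was the single member that did not pass the filter of a mean FPKM of 0.1, which left 62 members tested.

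Of the 62 histone cluster genes tested, 13 rose in Znf143 -/- and 0 fell, while the summed level of the family overlapped between the genotypes. The summed FPKM of the 63 members came to 1110, 1303 and 1139 for Znf143 f/f and to 2390, 1234 and 1679 for Znf143 -/-. The sums overlapped, since the second Znf143 -/- library lay below the second Znf143 f/f library, and the first Znf143 -/- library was far above the other 5. After rescaling they were 1120, 1438 and 1152 for Znf143 f/f and 2577, 1220 and 1398 for Znf143 -/-, so that the first Znf143 -/- library was the single one above all controls. The median log2 fold change of the 62 tested members was 0.79, against 0.11 over all genes tested, and it was 0.68 against 0.01 after rescaling. The fold change was above 0 for 60 of 62 members (58 after rescaling), where 62.0% of all genes tested lay above 0 (50.8% after rescaling).

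By limma on log2(FPKM + 0.1) with Benjamini-Hochberg adjustment over all 19296 genes, 13 of 62 members rose at an adjusted p under 0.05 and 0 fell. This is 21.0% of the tested members, where 2.74% of all genes tested rose and 1.58% fell. Among the 13 was Hist1h1t, which passed the filter through the Znf143 -/- libraries alone. At an unadjusted p under 0.05, 40 members were higher and 0 lower, with 13.0% of all genes higher. After rescaling, 8 of the 13 still passed, where 3.01% of all genes rose and 2.99% fell. Every Znf143 -/- value lay above every Znf143 f/f value for 34 of 62 members (54.8%), where this held for 16.7% of all genes tested. The reverse held for 0 members and 8.43% of all genes. After rescaling this held for 26 members, where it held for 15.5% of all genes. With 3 libraries against 3, the exact two-sided permutation test of a single gene cannot give a p below 0.1.

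**Figure D1:**
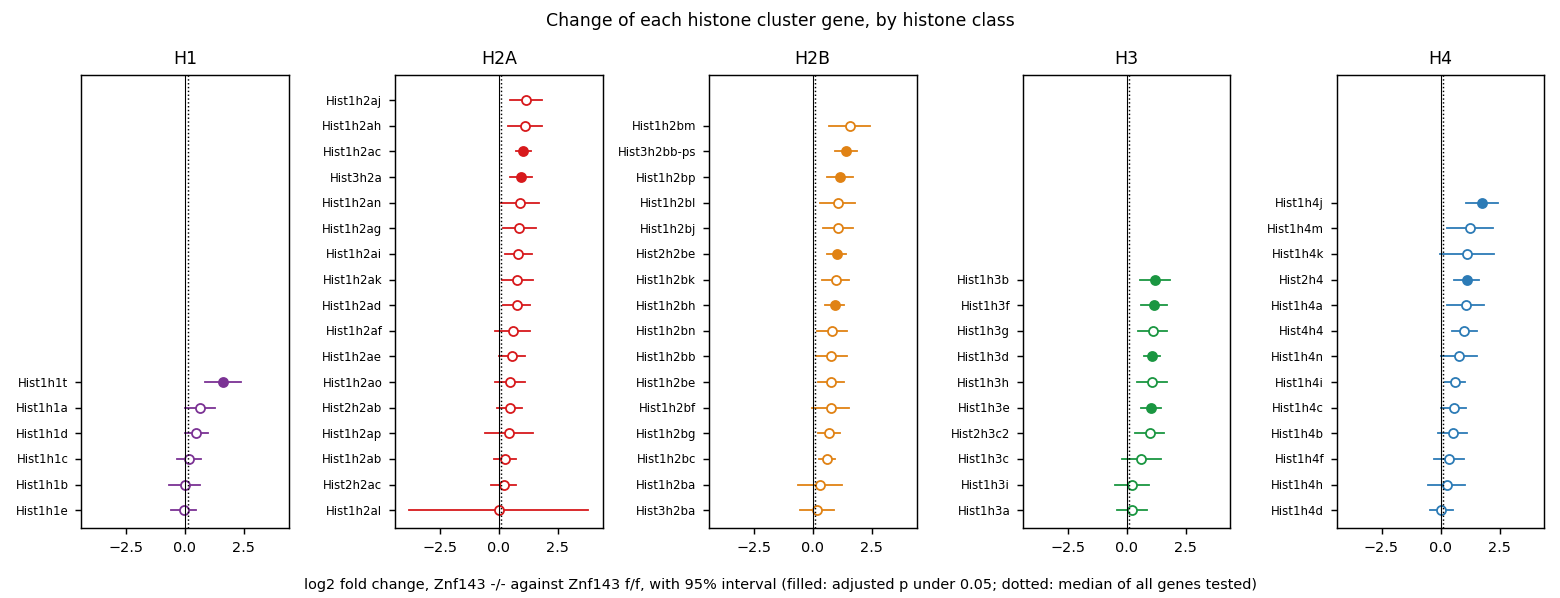
Log2 fold change of each of the 62 tested members (x axis, Znf143 -/- against Znf143 f/f, from log2(FPKM + 0.1)) with its 95% interval from limma, in a panel for each histone class. Filled points are the 13 members with an adjusted p under 0.05, and the dotted line is the median of all genes tested at 0.11. Points lie to the right of 0 in 60 of 62 members, and the widest interval is that of Hist1h2al.

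H3 genes, whose product forms the core of the nucleosome with H4, had the highest median log2 fold change of the classes (1.05), and 4 of 10 rose. Hist1h3d (chr13:23575763-23577011, plus strand, GRCm38) had FPKM of 21.9, 23.4 and 23.1 in Znf143 f/f and 54.3, 42.3 and 48.7 in Znf143 -/-. Its groups did not overlap, and its log2 fold change was 1.08 (SE 0.15, limma adjusted p = 0.00566; 0.0200 after rescaling). Hist1h3e had FPKM of 15.0, 18.0 and 15.3 against 40.1, 26.7 and 32.7, a log2 fold change of 1.02 (SE 0.18, limma adjusted p = 0.0179). Hist1h3f rose by 1.18 on the log2 scale and Hist1h3b by 1.20. The calls of Hist1h3e, Hist1h3f and Hist1h3b were not kept after rescaling, with limma adjusted p of 0.0581, 0.0803 and 0.103. Hist1h3i, the H3 gene with the highest mean FPKM, had 37.8, 47.6 and 40.7 in Znf143 f/f and 82.7, 30.2 and 47.9 in Znf143 -/-. Its groups overlapped and its log2 fold change of 0.24 did not pass the test.

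H2B genes had a median log2 fold change of 0.87, and 4 of 16 tested rose. Hist3h2bb-ps, a processed pseudogene, had FPKM of 3.40, 3.14 and 4.45 in Znf143 f/f and 10.1, 8.09 and 11.2 in Znf143 -/-. Its groups lay apart, with a log2 fold change of 1.40 (SE 0.20, limma adjusted p = 0.00688; 0.00873 after rescaling). Hist2h2be (chr3:96221119-96223738, plus strand) had FPKM of 3.34, 2.98 and 3.85 against 6.62, 6.38 and 7.74, a log2 fold change of 1.01 (SE 0.18, limma adjusted p = 0.0177). The Znf143 -/- values of Hist2h2be were close to each other, and all of its exonic 76-base stretches occur nowhere else on the GRCm38 chromosomes. Hist1h2bh rose by 0.93 and Hist1h2bp by 1.16 on the log2 scale, and the call of Hist1h2bp was lost after rescaling (limma adjusted p = 0.0861). Hist1h2bm had one of the 5 highest fold changes (1.56, SE 0.39) with a limma adjusted p of 0.0625. Hist1h2bc, the H2B gene with the highest mean FPKM, had 56.9, 52.8 and 55.1 against 96.2, 71.4 and 84.7, and its log2 fold change of 0.60 had a limma adjusted p of 0.0639.

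H2A genes, whose product pairs with H2B, had a median log2 fold change of 0.76, and 2 of 17 rose. Hist1h2ac (chr13:23681467-23683948, minus strand) had FPKM of 34.6, 32.0 and 34.9 in Znf143 f/f and 72.5, 60.6 and 77.2 in Znf143 -/-. Its log2 fold change was 1.04 (SE 0.15, limma adjusted p = 0.00633; 0.00771 after rescaling), and its call held under 22 of 24 alternatives, the largest number for a histone member. Hist3h2a had FPKM of 10.1, 8.32 and 9.44 against 14.0, 18.2 and 22.4, a log2 fold change of 0.94 (SE 0.20, limma adjusted p = 0.0333). Among the Znf143 -/- libraries Hist3h2a was lowest in the first, where most members were highest. Hist3h2a overlaps Trim17 on the same strand, and Hist1h2ac overlaps Gm24991. Hist1h2ae had FPKM of 229, 286 and 231 against 524, 258 and 365. These groups overlapped, and its log2 fold change of 0.57 had a limma adjusted p of 0.249. Hist1h2al, a pseudogene, varied within each genotype, with FPKM of 19.9, 0.327 and 20.4 against 39.4, 0.610 and 6.22. All 17 H2A members overlap a gene model on the opposite strand, and whether counting used the strand is not given in the sources used here.

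H4 genes had a median log2 fold change of 0.77, and 2 of 13 rose. Hist1h4j (chr13:21735064-21735837, plus strand) had FPKM of 0.301, 0.645 and 0.523 in Znf143 f/f and 2.36, 1.44 and 1.79 in Znf143 -/-. Its log2 fold change was 1.76 (SE 0.30, limma adjusted p = 0.0151; 0.0398 after rescaling). Its lowest library held 9 fragments. Hist2h4 had FPKM of 4.75, 7.10 and 3.86 against 11.1, 9.98 and 12.3, a log2 fold change of 1.11 (SE 0.23, limma adjusted p = 0.0325; 0.0662 after rescaling). Hist1h4d, the H4 gene with the highest mean, had 131, 187 and 136 against 197, 117 and 153, and its log2 fold change of 0.03 (95% interval -0.47 to 0.52) did not pass the test. Hist1h4m had a log2 fold change of 1.26 with a limma adjusted p of 0.154. Hist4h4, the single gene of its cluster, had 6.14, 7.01 and 5.69 against 17.2, 8.97 and 13.2. Its groups did not overlap, and its limma adjusted p was 0.0519.

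H1 genes, which encode the linker histone, had the lowest median log2 fold change of the classes (0.34), and 1 of 6 rose. That gene, Hist1h1t, encodes the linker histone known from testis and was at a very low level. It had 5 fragments summed over Znf143 f/f and 44 over Znf143 -/-, a ratio of 7.64 after scaling for library size (95% interval 3.04 to 24.7, counting error only). Its limma adjusted p was 0.0295. With a mean FPKM of 0.042 in Znf143 f/f and 0.334 in Znf143 -/-, it passed the filter of 0.1 through the Znf143 -/- libraries alone. Its call is therefore no independent support for a rise. The fitted log2 fold change of Hist1h1t, 1.62, depended on the pseudocount and was 2.80 with a pseudocount of 0.01. The other H1 genes did not pass the test. Hist1h1b had FPKM of 53.4, 67.2 and 54.7 against 94.8, 37.6 and 53.8, with a log2 fold change of -0.01 (95% interval -0.68 to 0.66). Hist1h1e had 29.4, 43.7 and 32.1 against 43.9, 25.1 and 33.9, with a log2 fold change of -0.05. Hist1h1b and Hist1h1e were the members with a fold change below 0 as deposited. Hist1h1c, the H1 gene with the highest mean, had a log2 fold change of 0.19.

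By cluster, 9 of 53 tested Hist1 genes rose, with a median log2 fold change of 0.78. In Hist2, 2 of 5 rose (median 0.97), in Hist3 2 of 3 (median 0.94), and the Hist4 gene did not pass the test. Hist2h2ac, the Hist2 gene with the highest mean, had a log2 fold change of 0.21, and Hist3h2ba, that of Hist3, had 0.17. The Hist1 genes lie on chromosome 13, in 2 spans that hold 23 and 30 members, apart from the pseudogene Hist1h2al (chr13:51202727-51203065), which lies outside both. In the first span (chr13:21715763-22043676), 2 of 22 tested members rose (median 0.94). In the second (chr13:23531050-23934156), 7 of 30 rose (median 0.63). Of the 6 other genes tested in the first span 1 rose (Gm11292), and of the 2 in the second span 1 rose. In Hist2, 1 of 2 other genes rose (Gm20632, log2 fold change 1.11, limma adjusted p = 0.0200). The gene of the second Hist1 span was Hfe, the hemochromatosis gene, with FPKM of 1.49, 2.18 and 1.63 against 3.94, 4.93 and 6.28 (log2 fold change 1.45, limma adjusted p = 0.0112). Over all genes tested 2.74% rose, and the calls of the other genes in the spans are given as deposited alone. Not all of these genes are separate from the members. Gm44357 of the first span overlaps Hist1h2aj on the opposite strand, with log2 fold changes of 1.18 and 1.17.

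**Figure D2:**
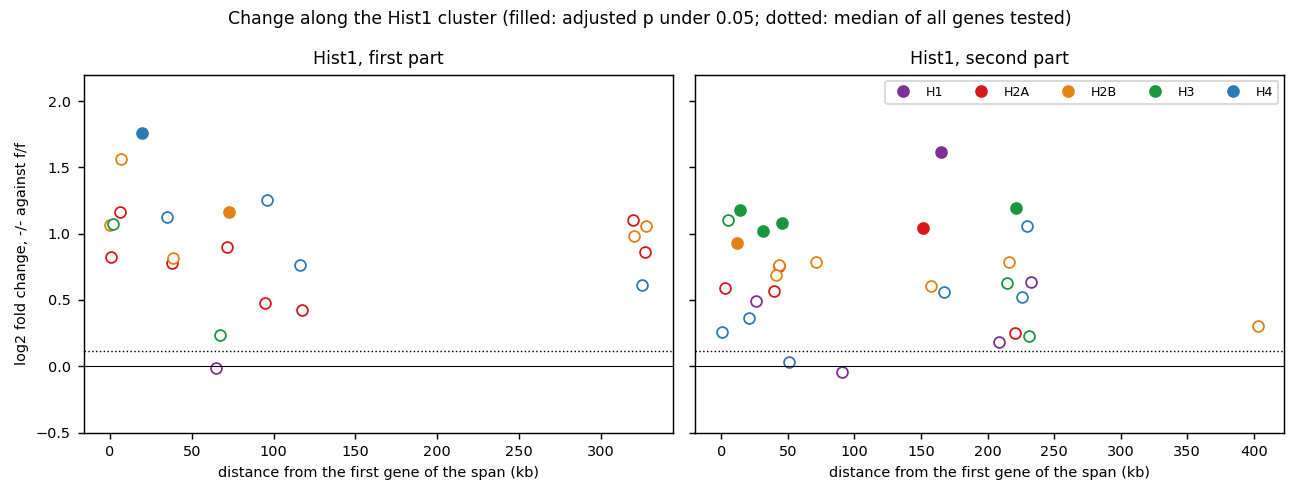
Log2 fold change of the Hist1 members (y axis) against the distance in kb from the first gene of each span (x axis), coloured by class. Filled points are members with an adjusted p under 0.05, 2 in the first span and 7 in the second, and the dotted line is the median of all genes tested at 0.11. Members with high and low values lie next to each other in both spans.

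H2A and H2B genes often lie back to back, so that 1 stretch of DNA serves both starts. Among protein coding members there were 10 such pairs with at most 400 bases between the starts, 175 to 301 bases apart. Of these, 9 had both genes tested. The H2B gene had the larger fold change in 7 of 9 pairs, and the median difference, H2B minus H2A, was 0.12 on the log2 scale. Hist2h2be rose by 1.01 while its partner Hist2h2ac had 0.21, which did not pass the test. In the pair Hist1h2ac and Hist1h2bc the order was the other way, 1.04 against 0.60. Pairs with a pseudogene were left out, namely Hist3h2a with Hist3h2bb-ps (0.94 and 1.40) and Hist1h2aj with Hist1h2bm (1.17 and 1.56). Differences within pairs were not tested.

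The stretches between the starts are shown for 3 pairs, since they hold the promoters of the pair with the largest difference, of the most abundant member and of Hist1h2ac. They are read from GRCm38 on the plus strand, with the TATA box (TATAAA), the CCAAT box and the octamer (ATTTGCAT) of either strand in capitals.
Hist2h2ac and Hist2h2be, chr3:96220881-96221118: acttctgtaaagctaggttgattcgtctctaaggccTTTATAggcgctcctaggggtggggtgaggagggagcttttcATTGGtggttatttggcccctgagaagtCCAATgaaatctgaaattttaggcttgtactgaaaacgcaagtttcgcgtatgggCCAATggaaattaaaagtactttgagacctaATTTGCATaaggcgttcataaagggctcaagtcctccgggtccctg
Hist1h2ae and Hist1h2bg, chr13:23571221-23571395: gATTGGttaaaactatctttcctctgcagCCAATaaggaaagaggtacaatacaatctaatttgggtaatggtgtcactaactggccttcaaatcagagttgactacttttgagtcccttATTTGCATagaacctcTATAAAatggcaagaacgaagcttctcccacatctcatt
Hist1h2ac and Hist1h2bc, chr13:23683949-23684198: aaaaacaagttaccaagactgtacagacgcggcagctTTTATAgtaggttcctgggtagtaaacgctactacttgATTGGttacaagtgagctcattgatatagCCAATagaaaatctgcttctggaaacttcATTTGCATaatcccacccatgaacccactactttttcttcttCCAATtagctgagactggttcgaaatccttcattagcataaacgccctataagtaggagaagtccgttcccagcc
Each of the 3 stretches holds 1 TATA box and 1 octamer, with 2 CCAAT boxes for Hist1h2ae and 3 for the others. Over the RefSeq promoter windows of GRCm38, 55 members were matched. The TATA box was in 33 of them (13.6% of all 32851 promoters), the CCAAT box in 46 (37.4%) and the octamer in 11 (1.74%), on either strand. The 11 with the octamer were 6 H2A and 5 H2B genes. The left and the right part of the ZNF143 binding motif, searched separately as exact patterns, were in 0 of the 55 windows, against 1.81% and 1.88% of all promoters. Beside shares this low, 0 of 55 is near the background, and the difference was not tested.

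**Figure D3:**
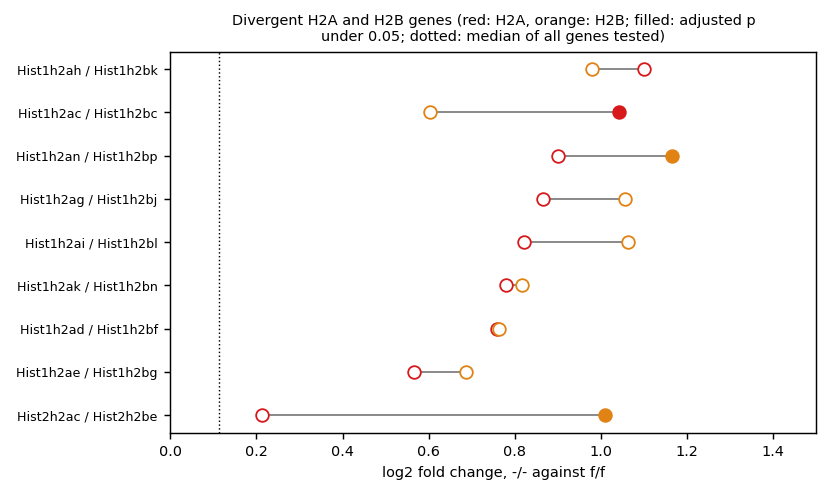
Log2 fold change (x axis) of the H2A gene (red) and the H2B gene (orange) of the 9 divergent protein coding pairs with both genes tested. A line joins the genes of each pair. Filled points have an adjusted p under 0.05, and the dotted line is the median of all genes tested at 0.11. The longest line is that of Hist2h2ac and Hist2h2be, at 0.21 and 1.01.

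The members were divided by whether the gene model runs more than 100 bases past the stem-loop, a division set after the values had been seen and not tested. The 25 members with such a long 3′ end include 10 of the 13 that rose, of 24 tested. Hist1h1t, at its very low level, is among these 10. Of 33 members with a short 3′ end 1 rose, Hist1h3b. The other 2 that rose had no stem-loop found, Hist2h2be and Hist3h2bb-ps. Over all genes tested 2.74% rose, and the 1 of 33 is near that share. Some short gene models, such as those of Hist1h1b and Hist1h3i, end before the stem-loop. The label therefore describes the gene model and not the length of the mRNA. The median log2 fold change was 0.94 for long and 0.76 for short 3′ ends. The long members also had more fragments (median 837 per library against 244), a smaller SE (median 0.23 against 0.29) and fewer shared stretches. A median of 83.2% of their exonic 76-base stretches occurred nowhere else on the GRCm38 chromosomes, against 41.5%. The part of these in the counts was not tested. Members with at least 50% of such stretches held 11 of the 13 calls of 39 tested, and those under 50% held 2 of 23.

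The first Znf143 -/- library stood apart in these genes. It held the highest of the Znf143 -/- values for 53 of 63 members as deposited, where 23.5% of all genes tested were highest there. The second Znf143 -/- library was the lowest for 61 of 63 as deposited. On that scale the third library is raised against the second for every gene, since both were scaled by the same number. The share of all genes lowest in the second library is not given here, so this count is not read as a trait of the histone genes. After rescaling, the first library was at a median of 2.23 times the mean of the other Znf143 -/- libraries for short 3′ ends and 1.75 times for long ones. The second Znf143 f/f library was 1.36 and 1.25 times the mean of the other controls. A list of 10 RNAs without a poly(A) tail, such as Rn7sk, summed to 141, 228 and 144 FPKM in Znf143 f/f and 250, 142 and 181 in Znf143 -/-, so the highest library of each genotype was the same as for the summed histone genes. Rn7sk was a large part of this sum, with FPKM of 90.9, 160 and 92.2 against 122, 84.2 and 106. Rpph1, Terc, Rn7s1 and Scarna13 were highest in the third Znf143 -/- library, and the other listed RNAs in the first. The part of the library pattern of these RNAs in the histone values was not tested.

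**Figure D4:**
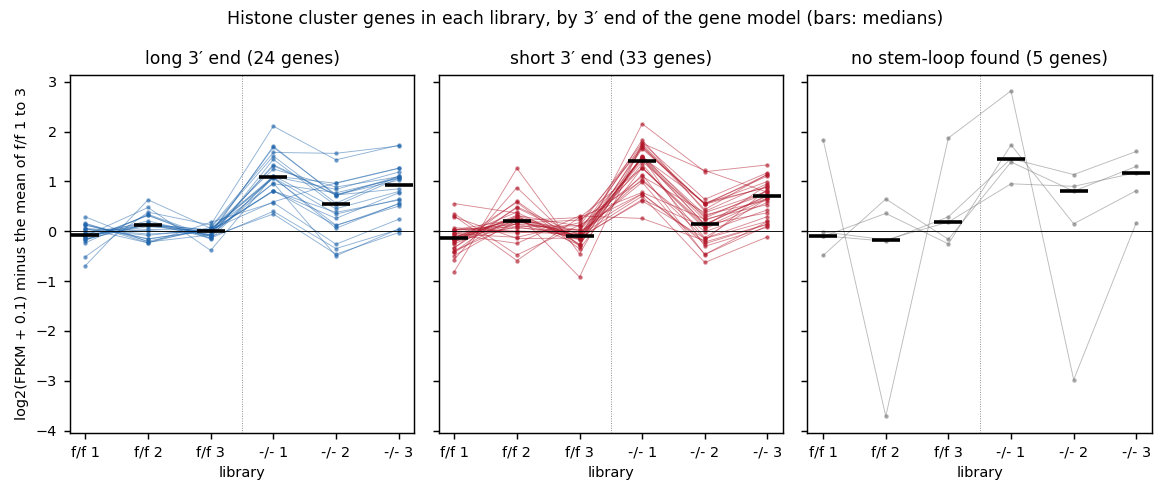
Log2(FPKM + 0.1) of each tested member minus its mean over the 3 Znf143 f/f libraries (y axis) in each library (x axis), in panels for 24 members with a long 3′ end, 33 with a short one and 5 with no stem-loop found. Thin lines join the values of 1 gene and black bars are medians. The first Znf143 -/- library holds the highest median in each panel.

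Without the first Znf143 -/- library, the median log2 fold change of the members was 0.51, against 0.18 over all genes, and 0.32 against 0.00 after rescaling. As deposited, the 13 members stayed past the threshold without it, with 1 more, where 5.86% of all genes rose and 2.02% fell. After rescaling, 10 of the 13 passed without it. Without this library, the median of members with a long 3′ end was 0.79 as deposited and 0.60 after rescaling. That of members with a short 3′ end was 0.43 as deposited and 0.23 after rescaling. Without the third Znf143 -/- library, 2 of the 13 remained, where all genes that rose numbered 81, against 529 over 6 libraries. The median log2 fold change of the members was then 0.81, against 0.01 over all genes.

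**Figure D5:**
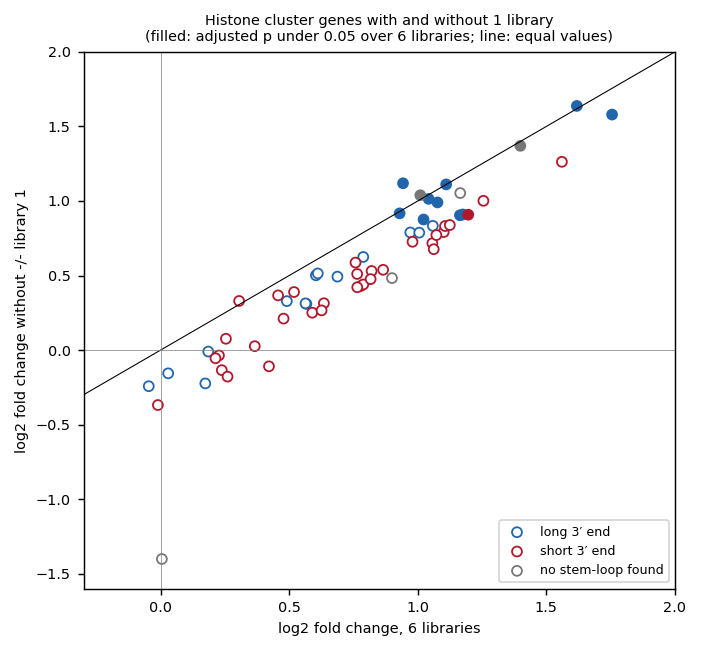
Log2 fold change of each tested member over 6 libraries (x axis) and without the first Znf143 -/- library (y axis), coloured by 3′ end, with the line of equal values. Filled points are the 13 members called over 6 libraries. Most members lie below the line, among them Hist1h3b (1.20 and 0.91) and Hist1h3f (1.18 and 0.91), while Hist1h2ac (1.04 and 1.01) lies close to it and Hist3h2a (0.94 and 1.12) above it.

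Genes that act on histone mRNA and histone protein did not pass the test. Of 27 histone mRNA processing and regulation genes 0 rose and 0 fell, with a median log2 fold change of 0.14. Slbp, the stem-loop binding protein, had FPKM of 28.3, 27.9 and 30.5 against 29.1, 32.0 and 41.0, a log2 fold change of 0.22 (95% interval -0.15 to 0.60). Npat, the coactivator of histone gene transcription, had a log2 fold change of 0.05 (95% interval -0.40 to 0.50) and Casp8ap2 one of -0.13. Lsm10 and Lsm11, parts of the U7 particle that cuts histone pre-mRNA, had -0.04 and 0.11. Of 24 histone chaperone genes 0 passed (median 0.16), and of 12 replacement histone genes, which are expressed outside S phase, 0 passed (median 0.28). Of 30 S phase genes 1 rose, Ccne1, the cyclin of the entry into S phase. Its FPKM were 5.82, 5.70 and 5.64 against 8.29, 9.50 and 11.4 (log2 fold change 0.74, limma adjusted p = 0.0479). Over all genes tested 2.74% rose and 1.58% fell, so the counts of these short lists are near the background.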

How the data were processed

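The data were 6 RNA-seq libraries of HSLAM cells, 3 for each genotype. ChIP-seq and HiC samples were not analysed here. The authors made libraries with SMART-Seq v4 and Nextera XT, used TrimGalore, STAR on GRCm38 (mm10) and FeatureCounts, and deposited FPKM per gene and library. Their own columns of fold changes and p-values were not used. Whether counting used the strand or shared reads is not given in the sources used here.

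Libraries were grouped by the sample titles, which read WT or KO. Fragments were recovered as FPKM times length, and 99.986% of values were within 0.05 of a whole number. log2(FPKM + 0.1) was fitted for 19296 genes, those whose mean FPKM reached 0.1, by limma 3.58.1 (R 4.3.3; trended eBayes, unblocked), two-sided, with Benjamini-Hochberg adjustment. Fold changes are on that log2 scale, which understates changes of low genes. The study describes 3 pairs of littermates. Which libraries form a pair is not given in the sources used here, so the fit is unpaired, and p-values measure the spread between these libraries. A count of 3 fragments was taken as the floor, 0.0555 to 0.0777 FPKM for a gene of 1 kb. The scripts were tested on simulated data with an assumed spread. There the fit recovered 24% of genes changed by 1 on the log2 scale and 97% of those changed by 2. Of its calls, 11.0% were false. Tables and plots were made in Python 3.11.15 (scipy 1.17.1, matplotlib 3.10.9). Sequences, gene models and shared 76-base stretches came from GRCm38 with GENCODE M21, and promoters from RefSeq.

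Members and lists were chosen with earlier results of these data known. Named are members past the threshold, the member with the highest mean FPKM of each cluster and class, the 5 highest and 5 lowest fold changes, and of the other lists those past the threshold with Slbp, Npat, Casp8ap2, Lsm10 and Lsm11. Hfe, Gm11292 and other genes outside this rule were named after their values were seen. Alternatives were other pseudocounts, filters, scalings and fits, a replicate block, and each library left out.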

Additional observations from a re-analysis of the deposited data

How the results depend on the processing

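Under the 24 alternatives, 0 members fell, and the fold changes of the 13 members that rose stayed above 0 in all 310 values. Of those values, 188 kept their side of the threshold. The count of 13 members that rose was 8 after rescaling by the median of ratios, 8 after upper quartile rescaling, 8 with voom on recovered fragments and 8 without a variance trend. All genes that fell then numbered 577, 619 and 744 under the first 3 of these, against 304. The median log2 fold change of members was 0.79, and 0.65 to 0.80 under these and the other settings that kept all libraries. The S phase list, with 1 call, had 0 with a pseudocount of 0.01, 3 after median-of-ratios or upper quartile rescaling, 4 with voom, and 0 without a trend. The histone mRNA processing list, with 0 calls, had 1 after upper quartile rescaling and 3 with voom. Same-numbered libraries did not deviate together (correlations -0.096, -0.091 and 0.031), so the numbers were not taken as pairs. A replicate block gave 17 members that rose, 12 of them among the 13, and 0 S phase calls, and a replicate block with median-of-ratios rescaling gave 0 members (25 at an unadjusted p under 0.05), 85 genes higher, 106 lower and 0 S phase calls.

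With each library left out, members that rose ranged from 2 to 22 as deposited and from 1 to 12 rescaled, and their median log2 fold change from 0.51 to 1.07 and from 0.32 to 0.94. All genes higher ranged from 81 to 1128 and lower from 108 to 550 as deposited. Rescaled, without Znf143 f/f library 1, 2 and 3, genes higher were 185, 1162 and 125 and lower 185, 1121 and 135, and without Znf143 -/- library 1, 2 and 3, higher 1145, 152 and 86 and lower 989, 202 and 139. Calls ranged from 0 to 7 for S phase, 0 to 4 for histone mRNA processing, 0 to 1 for chaperones and 0 to 1 for replacement histones. As deposited, members that rose were 4, 22 and 5 without Znf143 f/f library 1, 2 and 3, and 14, 10 and 2 without Znf143 -/- library 1, 2 and 3. Rescaled they were 4, 12 and 2, and 12, 3 and 1. The causes were not tested. Depth limits the 6 members with under 10 fragments in a library.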
